A study of Mus musculus with 12 samples.

Results

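Ephrins, semaphorins, netrins and slits, together with their receptors, are the classical families of guidance molecules. Of the 24421 genes in the count table, 68 belonged to these families by their symbols: 14 Eph receptors, 8 ephrins, 20 semaphorins, 9 plexins, 2 neuropilins, 8 netrins and UNC5 receptors, and 7 slits and ROBO receptors. The rule reads symbols only and uses no measured value. RNA-seq was performed in mouse embryonic stem (mES) cells of strain B6, derived from blastocysts and cultured in 2i+LIF, in which a degron tag had been knocked in at Brg1 (gene symbol Smarca4). All 12 libraries carried this knock-in, controls included, and such lines were picked as colonies grown from single cells. BRG1 is the ATPase of the mSWI/SNF chromatin remodeling complex, and dTAG13 is a small molecule that directs the tagged protein to degradation. Cells received dTAG13 for 24 h at 0 (control), 0.3, 1, 3, 10 or 100 nM, in 2 libraries each, and the comparisons ask how the RNA of guidance genes followed the graded loss of BRG1.

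Eph receptors are receptor tyrosine kinases that bind ephrins held on the surface of a neighboring cell, and both partners can signal. Semaphorins act through plexins, and most secreted class 3 semaphorins also need a neuropilin as co-receptor. Netrins attract or repel cells through DCC and UNC5 receptors, and slits repel through ROBO receptors. The families are best known from axon guidance, but they also act in tissue boundaries, blood vessels and early embryos.

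Each library held 4663484 to 6375582 counts over all genes (median 5956669.5). The 68 guidance genes took 7355 to 9363 counts per library, which was 0.132% to 0.158% of the total. Levels are given as RPKM (counts scaled to exon length and to the TMM-scaled size of the library). Testing was by edgeR's quasi-likelihood test on genes that averaged 1 RPKM or more across the 12 libraries, and a gene was called at a Benjamini-Hochberg adjusted p under 0.05 with a fold change over 1.5. This left 31 guidance genes among 11378 tested genes, and the 37 others, all with counts, are described apart. The 2 libraries of each condition differed from each other beyond counting noise, with chi-square per degree of freedom from 1.96 with 0.3 nM to 15.6 with 3 nM. This measure was taken on raw counts and included the ribosomal transcript Rn45s. Its share was 15.9% and 16.2% with 0.3 nM and 10.5% and 19.0% with 3 nM. Over the tested genes, the 2 libraries of a condition correlated at 0.987 to 0.990 in log2 level. The sources describe independent experiments without saying which cultures the libraries came from, so p-values measure the spread between these samples. The ribosomal transcript Rn45s took 10.5% to 19.4% of the counts. Smarca4 RNA stood at 63.2 to 71.0 RPKM in all 12 libraries, which does not check depletion, since dTAG13 acts on the protein. The 8 mES cell markers examined were all above 1 RPKM, and their summed level was 1252 to 1290 RPKM with 0 nM and 1260 to 1300 RPKM with 100 nM. Among them only Tfcp2l1 fell at 100 nM, from 129 and 131 RPKM to 82.6 and 84.7 RPKM.

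Among the guidance genes that passed the filter of 1 RPKM, more were called lower than higher. At 100 nM, 9 of the 31 tested guidance genes fell, against 6.83% of all tested genes, and 2 rose, against 4.36%. This imbalance holds for the filtered genes only. In the fit without the filter, 10 guidance genes were called lower at 100 nM and 9 higher. The filter takes the mean over all libraries, so it can leave out genes that were low in control and rose. The receptor genes Ephb3 and Unc5b and the semaphorin gene Sema6c fell to 18.4%, 24.5% and 21.6% of their control level, and Robo4 fell to 40.5%. Plxnb2, Sema5b, Robo1, Efna3 and Epha4 fell to between 52.4% and 62.1% of control. Among the tested genes, the receptor genes that rose were Ephb4, to 219% of control, and Epha7, to 153%. The most abundant guidance gene, Epha2, and the most abundant plexin gene, Plxna1, were not called at any dose. Bulk RNA cannot tell fewer cells of one kind from less RNA per cell.

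**Figure D1:**
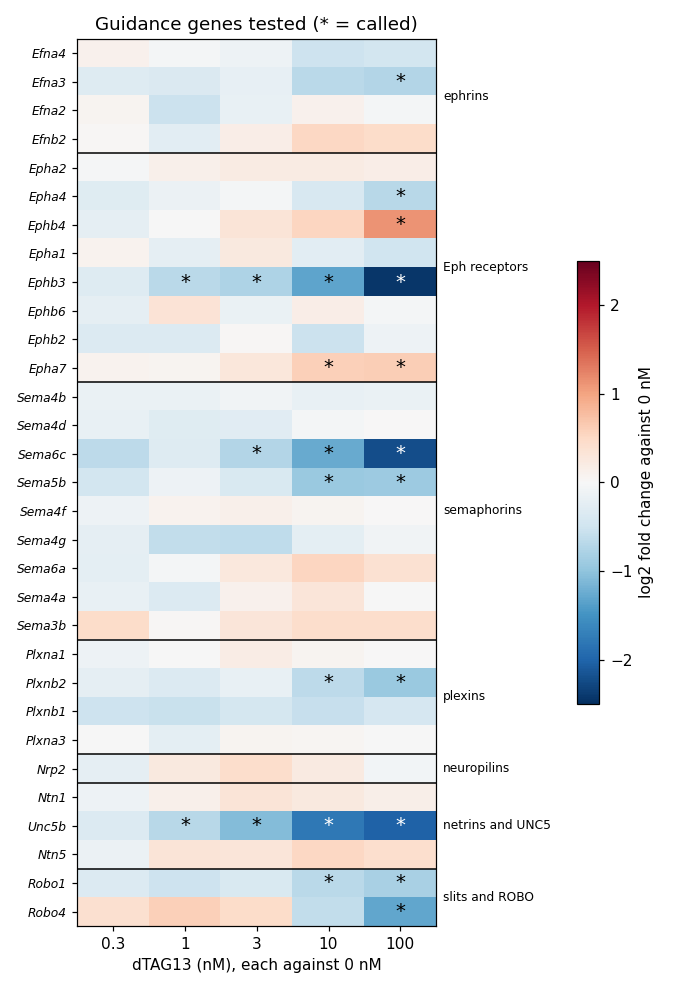
Log2 fold change of the 31 tested guidance genes (vertical axis, grouped by family and ordered by level) at each dTAG13 dose against 0 nM (horizontal axis). Color gives the log2 fold change, fitted over 2 libraries per condition, and an asterisk marks a gene called by edgeR. Ephb3 and Unc5b deepen in blue from left to right, Sema6c is paler with 1 nM than with 0.3 nM before it deepens, and Ephb4 reaches 1.13 with 100 nM.

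The number of guidance genes called grew with dose. At 0.3 nM, 0 were called by edgeR in either direction, against 0% of tested genes higher and 0.0176% lower, and DESeq2 called 0. At an unadjusted p under 0.05, 8 were lower and 0 higher at 0.3 nM, against 4.43% and 3.15% of all genes. At 1 nM, Unc5b and Ephb3 were lower (0.773% of genes were) and 0 were higher (0.176% of genes). At an unadjusted p under 0.05, 1 was higher and 8 lower with 1 nM, against 5.599% and 7.93% of all genes. At 3 nM, Sema6c joined them as lower (2.47% of genes) and 0 were higher (1.48% of genes). With 3 nM, 6 were higher and 7 lower at an unadjusted p under 0.05, against 9.62% and 12.2% of all genes. DESeq2 called 1 guidance gene at 1 nM and 2 with 3 nM, without regard to direction. Both calls at 1 nM were lost without replicate 1 of 0 nM or without replicate 2 of 1 nM. At 10 nM, 6 were lower (5.01% of genes), adding Plxnb2, Sema5b and Robo1, and 1, Epha7, was higher (2.91% of genes). A test across the 5 doses together called 10 guidance genes, against 11% of tested genes. These were the genes called at 100 nM except Efna3. Leaving out single libraries left 5 to 9 calls at 10 nM and 8 to 9 lower calls at 100 nM.

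The median log2 fold change of the 31 genes was -0.19 with 0.3 nM, -0.16 with 1 nM, 0.03 with 3 nM, -0.05 with 10 nM and -0.07 with 100 nM. The median over all tested genes stayed between -0.01 and 0.00. At 0.3 nM, 24 of the 31 guidance genes were below control by sign, while 49.1% of all tested genes were above it. The 0.3 and 3 nM libraries carry library numbers from another series of numbers than the other 8 libraries, including the controls. What these numbers mark is not stated, so dose and whatever the series marks cannot be told apart for those comparisons. The size of change at 100 nM, without sign, had a median of 0.42 for the guidance genes and 0.22 for all tested genes. At 0.3 nM, where no guidance gene was called, these medians were 0.22 and 0.11. The guidance genes also had lower levels, with a median of 3.70 RPKM at 0 nM against 9.37 for all tested genes. The part of level in these sizes of change was not tested.

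Promoter sequences are shown for the genes with the steepest falls, for the receptor gene with the largest rise, and for Sema3e, a semaphorin gene described further on. Each line holds the 250 bases upstream of the gene's start from RefSeq (GRCm38.p6, the assembly of mm10), 5′ to 3′ on the strand of the gene. Capitals mark GC boxes (GGGCGG or its reverse complement CCGCCC) and CCAAT boxes (CCAAT or its reverse complement ATTGG), which are common promoter elements. The windows are chr10:60831582-60831831 (minus strand) for Unc5b, chr16:21204545-21204794 for Ephb3, chr3:95160170-95160419 for Sema6c, chr5:137349859-137350108 for Ephb4 and chr5:14025026-14025275 for Sema3e, the last 4 on the plus strand.
Unc5b: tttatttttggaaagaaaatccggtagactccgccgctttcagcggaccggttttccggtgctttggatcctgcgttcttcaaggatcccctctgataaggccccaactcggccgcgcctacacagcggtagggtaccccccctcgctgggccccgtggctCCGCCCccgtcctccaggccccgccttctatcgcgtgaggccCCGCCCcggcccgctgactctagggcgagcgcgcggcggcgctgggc
Ephb3: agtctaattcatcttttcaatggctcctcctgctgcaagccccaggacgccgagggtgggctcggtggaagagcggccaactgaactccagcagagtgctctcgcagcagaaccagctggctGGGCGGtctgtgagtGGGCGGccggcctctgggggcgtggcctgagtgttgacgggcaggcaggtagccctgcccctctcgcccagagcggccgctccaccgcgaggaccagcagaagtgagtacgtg
Sema6c: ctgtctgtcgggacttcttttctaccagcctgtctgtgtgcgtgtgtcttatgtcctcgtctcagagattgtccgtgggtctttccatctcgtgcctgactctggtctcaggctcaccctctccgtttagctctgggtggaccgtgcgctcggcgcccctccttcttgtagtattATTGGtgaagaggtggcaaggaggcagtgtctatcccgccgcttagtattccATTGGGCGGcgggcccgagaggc
Ephb4: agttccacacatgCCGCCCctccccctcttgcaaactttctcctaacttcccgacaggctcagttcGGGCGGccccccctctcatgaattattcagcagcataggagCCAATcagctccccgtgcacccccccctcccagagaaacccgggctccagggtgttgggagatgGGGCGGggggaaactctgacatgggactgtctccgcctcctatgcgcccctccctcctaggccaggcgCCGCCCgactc
Sema3e: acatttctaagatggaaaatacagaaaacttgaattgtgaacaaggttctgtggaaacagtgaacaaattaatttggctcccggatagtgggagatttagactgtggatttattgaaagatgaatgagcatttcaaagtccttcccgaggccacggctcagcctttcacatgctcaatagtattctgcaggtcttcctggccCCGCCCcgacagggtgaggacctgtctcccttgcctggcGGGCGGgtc

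All 5 windows held at least 1 GC box, including both genes that fell and genes that rose. Unc5b, Ephb3 and Sema3e held 2 each, Sema6c held 1 and Ephb4 held 4. In Sema6c, 1 of the 2 CCAAT boxes overlapped the GC box. CpG dinucleotides numbered 27 for Unc5b, 16 for Ephb3, 15 for Sema6c, 12 for Ephb4 and 7 for Sema3e. No E-box with the letters CACGTG lay in any of these windows. Of all 32851 RefSeq windows of this length, 32.7% held a GC box, 33.8% a CCAAT box and 6.02% that E-box, with a median of 6 CpG. A window was found for 59 of the 68 guidance genes, and for 47 it ended at the gene's start in the count table. Of the 20 such windows of tested guidance genes, 15 (75%) held a GC box, 6 (30%) a CCAAT box and 0 that E-box, and the median was 14.5 CpG. Over all 47 the shares were 76.6%, 25.5% and 4.26%, with a median of 15 CpG. The 32851 windows were not chosen by gene start in the count table or by RNA level. The sets are therefore unlike, and these shares cannot show a trait of guidance genes.

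Ephb3, a receptor for B-class ephrins, had a lower level at each higher dose. Its level was 4.91 and 4.73 RPKM with 0 nM, 3.73 and 3.96 with 0.3 nM, 3.14 and 2.94 with 1 nM, 2.77 and 2.89 with 3 nM, 1.97 and 1.90 with 10 nM and 0.914 and 0.864 with 100 nM. The 2 libraries of every dose lay below both control libraries, and no 2 neighboring conditions overlapped. The change at 100 nM was -2.43 ± 0.206 (log2, SE, n = 2 per condition; edgeR adjusted p = 1.32e-09), a 5.42-fold fall in mean RPKM. At 1 nM it was already -0.66 ± 0.166 (adjusted p = 0.029). The gene's exons lie within chr16:21204795-21223304 on the plus strand.

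Unc5b, a netrin receptor also known in blood vessel patterning, lost most of its RNA by 10 nM. Its level was 10.1 and 9.41 RPKM with 0 nM, 7.48 and 7.83 with 0.3 nM, 6.77 and 5.27 with 1 nM, 3.99 and 5.10 with 3 nM, 2.48 and 3.18 with 10 nM and 2.39 and 2.38 with 100 nM. Both control libraries were higher than all 10 treated libraries. The change was -1.78 ± 0.143 with 10 nM and -2.03 ± 0.147 with 100 nM (log2, SE; edgeR adjusted p = 1.42e-09 and 7.53e-11). Between 10 and 100 nM the difference was -0.24 ± 0.175 and was not called (adjusted p = 0.659). Unc5b was the guidance gene called lower between 0.3 and 3 nM, where 1.26% of tested genes were lower, with a change of -0.74 ± 0.14 (adjusted p = 0.00148). Those 4 libraries share a series of library numbers and include no control.

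Sema6c, a membrane-bound class 6 semaphorin, fell nearly as far as Ephb3. It stood at 4.46 and 4.80 RPKM with 0 nM, 2.81 and 3.04 with 0.3 nM, 3.43 and 3.97 with 1 nM, 2.79 and 2.78 with 3 nM, 1.80 and 2.09 with 10 nM and 1.14 and 0.855 with 100 nM. All treated libraries were below both controls, but the order was not even, and both 1 nM libraries were above both 0.3 nM libraries. The change at 100 nM was -2.21 ± 0.213 (log2, SE; edgeR adjusted p = 1.35e-08), and at 0.3 nM it was -0.66 ± 0.177 (adjusted p = 0.249).

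Robo4, a ROBO family member best known from endothelium, did not follow the doses in 1 direction. Its level was 2.66 and 2.48 RPKM with 0 nM, 3.36 and 3.39 with 0.3 nM, 3.24 and 4.52 with 1 nM, 3.45 and 3.65 with 3 nM, 1.40 and 1.95 with 10 nM and 0.939 and 1.14 with 100 nM. The 6 libraries of 0.3, 1 and 3 nM lay above both controls, and the 4 libraries of 10 and 100 nM lay below them. The higher values at low dose were not called (log2 change 0.60 ± 0.208 with 1 nM, edgeR adjusted p = 0.161). The change at 100 nM was -1.30 ± 0.261 (adjusted p = 0.000498), and the difference between 1 and 10 nM was -1.21 ± 0.224 (adjusted p = 0.000868). Pecam1, an endothelial marker that mES cells also express, fell from 13.96 and 12.2 RPKM to 3.36 and 2.68 RPKM with 100 nM. It was the marker among 5 endothelial ones that reached a mean of 1 RPKM, and the summed level of the 5 was 13.9 to 15.1 RPKM with 0 nM and 4.50 to 5.57 RPKM with 100 nM. The others, Cdh5, Tek, Kdr and Emcn, were each under 1 RPKM on average, and the part of such cells in the Robo4 values was not tested.

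**Figure D2:**
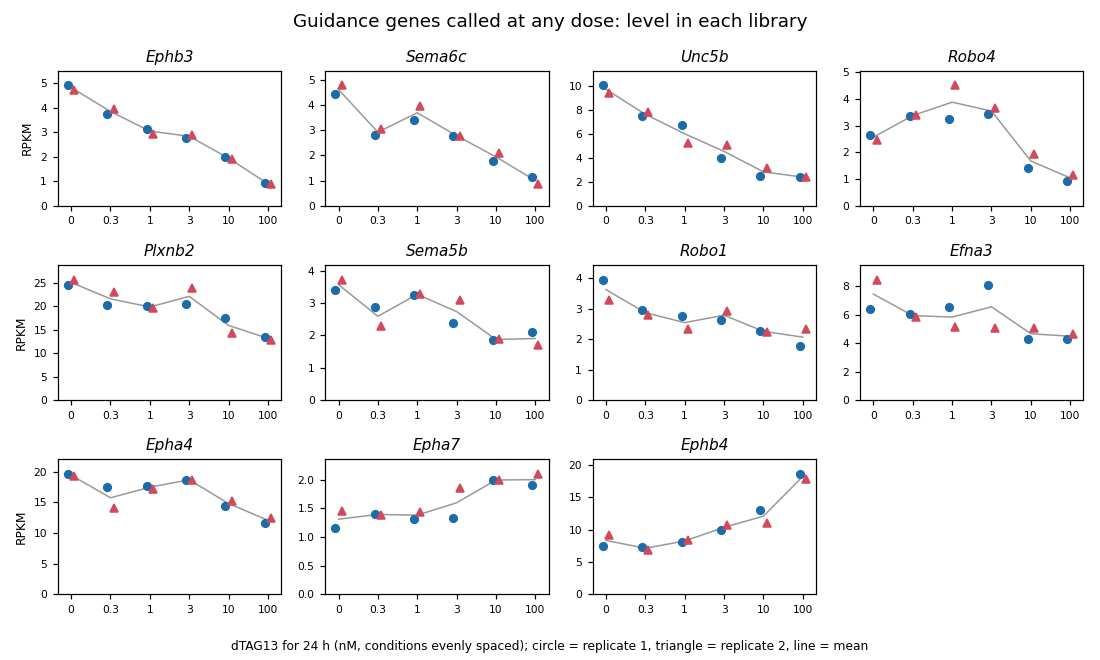
Level in RPKM (vertical axis, starting at 0) of the 11 guidance genes called at any dose, in each library of the 6 conditions (horizontal axis, dTAG13 in nM, evenly spaced). Circles are replicate 1, triangles replicate 2 and the line joins the means; the Robo4 libraries of 0.3, 1 and 3 nM lie above both of its controls and those of 10 and 100 nM below them.

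The other falling genes changed less. Plxnb2, a plexin that serves class 4 semaphorins and the most abundant of the genes that fell, had 24.5 and 25.7 RPKM with 0 nM, 20.2 and 23.0 with 0.3 nM, 20.1 and 19.5 with 1 nM, 20.4 and 23.8 with 3 nM, 17.5 and 14.3 with 10 nM and 13.4 and 12.8 with 100 nM. Both libraries of 10 nM and of 100 nM were below all libraries of lower doses. Its change at 100 nM was -0.93 ± 0.0918 (log2, SE; edgeR adjusted p = 1.99e-08). Epha4, a receptor that binds ephrins of both classes, had 19.6 and 19.2 RPKM with 0 nM and 11.6 and 12.5 RPKM with 100 nM, with 13.99 to 18.7 RPKM in the libraries between. Its 100 nM libraries were the lowest of the 12, and the change was -0.69 ± 0.089 (adjusted p = 1.59e-06).

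Sema5b, a transmembrane semaphorin, went from 3.42 and 3.73 RPKM with 0 nM to 1.87 and 1.88 with 10 nM and 2.10 and 1.71 with 100 nM. The 10 and 100 nM libraries overlapped one another and lay below all others, with changes of -0.93 ± 0.197 and -0.91 ± 0.196 (log2, SE; edgeR adjusted p = 0.00131 and 0.00107). Robo1, a slit receptor, went from 3.96 and 3.30 RPKM with 0 nM to 2.27 and 2.24 with 10 nM and 1.79 and 2.34 with 100 nM, with a change of -0.81 ± 0.157 with 100 nM (adjusted p = 0.000344). All of its treated libraries lay below both controls, and 10 and 100 nM overlapped. Efna3, a ligand of A-class Eph receptors, had 6.42 and 8.46 RPKM with 0 nM and 4.30 and 4.65 RPKM with 100 nM. Its change, -0.73 ± 0.269, lay at the edge of the threshold (adjusted p = 0.0498) and lost its call under 14 of 23 other settings. Those included leaving out any single library of 1, 10 or 100 nM, either library of 0.3 nM, or replicate 2 of 0 nM, and adjusted p reached 0.338.

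Ephb4, a B-class Eph receptor that pairs with ephrin-B2 in vessels, was the tested guidance gene with the largest rise. Its level was 7.42 and 9.25 RPKM with 0 nM, 7.33 and 6.93 with 0.3 nM, 8.12 and 8.37 with 1 nM, 9.94 and 10.8 with 3 nM, 13.1 and 11.1 with 10 nM and 18.6 and 17.8 with 100 nM. The libraries of 3, 10 and 100 nM lay above both controls and did not overlap between these doses. The change at 100 nM was 1.13 ± 0.11 (log2, SE; edgeR adjusted p = 1.63e-08), and at 10 nM it was 0.54 ± 0.114 (adjusted p = 0.00138), which is under the 1.5-fold limit. Ephb3 and Ephb4, receptors of 1 class, changed in opposite directions in the same libraries. Their common ligand gene Efnb2 stood at 1.39 and 1.20 RPKM with 0 nM and 2.14 and 1.43 RPKM with 100 nM and was not called (log2 change 0.46 ± 0.272, adjusted p = 0.239).

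Epha7, an A-class receptor, was higher at 10 and 100 nM. It had 1.16 and 1.46 RPKM with 0 nM, 1.32 to 1.44 in the libraries of 0.3 and 1 nM, 1.34 and 1.85 with 3 nM, 1.99 and 2.00 with 10 nM and 1.90 and 2.10 with 100 nM. The 4 libraries of 10 and 100 nM were above the other 8. The change at 100 nM was 0.61 ± 0.19 (log2, SE; edgeR adjusted p = 0.0212). This call was lost without replicate 1 of 0 nM, without either library of 100 nM, with DESeq2 and with TMM factors over all genes, and adjusted p reached 0.193.

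Treated doses were also compared with each other, and the steps from 1 to 10 nM and from 10 to 100 nM were chosen after the values had been seen. From 1 to 10 nM, 5 guidance genes were lower (Unc5b, Ephb3, Sema5b, Sema6c and Robo4), against 1.72% of tested genes. In that step 0 were higher, against 0.817%. At an unadjusted p under 0.05, 6 were higher and 8 lower in that step, against 8.53% and 9.90% of all genes. DESeq2 called 3 in this step, and edgeR called 3 without replicate 1 of 1 nM and 1 without replicate 2 of 1 nM. From 10 to 100 nM, Ephb3 and Sema6c were lower, against 0.756% of tested genes, and Ephb4 was higher, against 0.202%. The changes were -1.12 ± 0.24 for Ephb3, -0.96 ± 0.246 for Sema6c and 0.59 ± 0.105 for Ephb4 (log2, SE; edgeR adjusted p = 0.00874, 0.0351 and 0.00131). None of these 3 calls was made without replicate 1 of 100 nM, and 1 guidance gene was called without replicate 2 of 100 nM or without replicate 2 of 10 nM. From 0.3 to 3 nM, Nrp2 was higher, as were 0.738% of tested genes, and Unc5b was lower. That step held 1 call without replicate 1 of 0.3 nM.

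Nrp2, a co-receptor for class 3 semaphorins, was highest in the middle of the dose range. It had 3.03 and 3.03 RPKM with 0 nM, 2.53 and 2.64 with 0.3 nM, 4.01 and 3.22 with 1 nM, 4.20 and 3.99 with 3 nM, 3.18 and 3.88 with 10 nM and 3.06 and 2.72 with 100 nM. The 100 nM libraries spanned the control values, and the 3 nM libraries lay above all others except replicate 1 of 1 nM. The change from 0.3 to 3 nM was 0.66 ± 0.142 (log2, SE; edgeR adjusted p = 0.00538), and against control no dose was called. Nrp1, the other neuropilin gene, averaged 0.161 RPKM.

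Family counts at 100 nM stand beside 6.83% of all tested genes that fell and 4.36% that rose. With so few tested genes per family, they describe single genes rather than families. By family, 2 of 8 tested Eph receptors fell and 2 rose at 100 nM. Of 4 tested ephrins 1 fell, of 9 semaphorins 2, of 4 plexins 1, of 3 netrins and UNC5 receptors 1, of 2 ROBO receptors 2 and of 1 neuropilin 0, and no tested gene of these families was called higher. The summed RPKM of each family, which is led by its most abundant members, was 97.2 with 0 nM and 103 with 100 nM for Eph receptors and 25.4 and 20.5 for ephrins. It was 51.4 and 47.3 for semaphorins, 72.2 and 60.5 for plexins and 26.7 and 22.2 for netrins and UNC5 receptors. It was 6.98 and 5.33 for slits and ROBO receptors and 3.16 and 3.20 for neuropilins.

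Several of the most abundant guidance genes were not called at any dose. Epha2, a receptor best known in epithelia, had 54.7 and 54.8 RPKM with 0 nM and 59.9 and 62.8 RPKM with 100 nM (log2 change 0.16 ± 0.0771, edgeR adjusted p = 0.131). Plxna1, a receptor for class 3 and class 6 semaphorins, had 38.1 and 39.8 RPKM with 0 nM and 38.7 and 40.2 RPKM with 100 nM (0.02 ± 0.0553, adjusted p = 0.853). The groups overlapped for Plxna1, and both 100 nM libraries of Epha2 lay above its controls. Sema4b, a class 4 semaphorin, had 22.7 and 22.6 RPKM with 0 nM and 20.7 and 19.5 with 100 nM (-0.17 ± 0.0856, adjusted p = 0.158). Ntn1, a netrin that binds UNC5 receptors, had 15.1 and 15.02 RPKM with 0 nM and 16.7 and 16.4 with 100 nM (0.14 ± 0.0979, adjusted p = 0.339).

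Plxnb1, a plexin related to Plxnb2, passed the test of p but not of fold. It had 4.73 and 4.35 RPKM with 0 nM and 2.67 to 3.99 RPKM in the 10 treated libraries, all below both controls (log2 change at 100 nM -0.42 ± 0.146, edgeR adjusted p = 0.0379). Efna4, the most abundant ephrin gene, had 10.5 and 9.34 RPKM with 0 nM and 6.81 and 7.65 with 100 nM (-0.45 ± 0.182, adjusted p = 0.0735). The 20 tested guidance genes not called at 100 nM ranged from -0.49 to 0.46 in log2 change. Sema4d and Efna2, also among the 3 most abundant of their families, had log2 changes of 0.01 ± 0.105 and -0.05 ± 0.243, whose sign turned when single libraries were left out, as it did for Plxna1 and Nrp2. Ntn5 averaged 1.61 RPKM, but 1557 of its 2216 exon bases overlap Sec1 on the other strand, and counts without strand cannot separate them.

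The 37 guidance genes below 1 RPKM averaged 0.0414 to 0.921 RPKM. Together they held 280 to 579 counts per library, and their sum was higher at high dose, going from 58.7 and 49.9 CPM (counts scaled to library size) with 0 nM to 79.0 and 73.2 with 10 nM and 95.4 and 92.6 with 100 nM. The sum over all genes of the table below the filter was higher too, going from 6280 and 6134 CPM with 0 nM to 9599 and 9870 with 100 nM. In a fit of all 23204 genes with a count, 32 of the 37 were above control by sign at 100 nM, with a median log2 change of 1.00. Of the 11826 genes below the filter, 71.7% were above control, with a median of 0.96. Both 100 nM libraries lay above both controls for 25 of the 37, against 38.7% of those 11826 genes, and below both for 1, against 4.88%. Those genes were not matched to the 37 by level, and the part of level in these shares was not tested. The sum of the tested guidance genes was lower at 100 nM, with 1451 and 1466 CPM with 0 nM and 1287 and 1301 with 100 nM. It did not follow the doses in 1 direction. The sum was 1277 and 1327 CPM with 0.3 nM and 1385 and 1341 with 1 nM. With 3 nM it was 1426 and 1537 CPM, and with 10 nM 1389 and 1311.

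Of these 37 genes, 7 were called higher at 100 nM, against 3.7% of the genes below the filter, and 1 was called lower, against 0.702%, again without matching by level. DESeq2 called 1 of the 8. The number called was 4 and 3 without replicate 1 or 2 of 0 nM, and 4 and 5 without replicate 1 or 2 of 100 nM. The genes called higher were 3 class 3 semaphorins (Sema3c, Sema3e and Sema3g), the slit ligands Slit1 and Slit3, Robo3 and Efnb1.

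Sema3e, a secreted semaphorin that signals through plexin D1 without a neuropilin, had the largest log2 change of the 8. Its counts were 1 and 5 with 0 nM, 3 and 2 with 0.3 nM, 2 and 9 with 1 nM, 6 and 14 with 3 nM, 32 and 42 with 10 nM and 58 and 59 with 100 nM. From 3 nM upward every library exceeded both controls, and the 10 and 100 nM libraries stood apart from all others. Its level at 100 nM was 1.39 and 1.40 RPKM, 19.5 times the control mean, which rests on 6 counts. The log2 change was 3.58 ± 0.495 with 10 nM and 4.21 ± 0.459 with 100 nM (edgeR adjusted p = 4.82e-11 and 6.24e-18), and it was called under all 23 other settings. The 100 nM value was 3.53 without replicate 1 of 0 nM and 5.64 without replicate 2 of 0 nM. Plxnd1, the gene of its receptor, had 24 and 19 counts with 0 nM and 43 and 31 with 100 nM (log2 change 0.76 ± 0.324, adjusted p = 0.109).

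**Figure D3:**
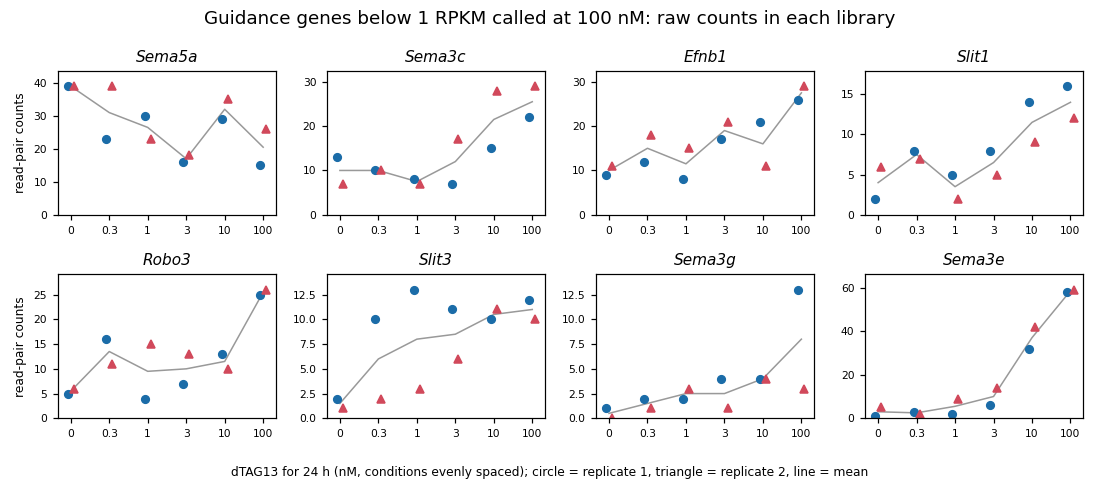
Raw read-pair counts (vertical axis, starting at 0) of the 8 guidance genes below 1 RPKM that were called at 100 nM, in each library of the 6 conditions (horizontal axis, dTAG13 in nM, evenly spaced). Circles are replicate 1, triangles replicate 2 and the line joins the means; Sema3e goes from 1 and 5 counts to 58 and 59, and Sema5a is the gene that fell.

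The other rising genes of this group rested on few reads. Robo3, a receptor of commissural axons, had 5 and 6 counts with 0 nM, 4 to 16 counts at the doses between and 25 and 26 counts with 100 nM (log2 change 2.16 ± 0.495, edgeR adjusted p = 0.000233). Only at 100 nM did it clear every other library. It lies 2021 bases from Robo4 on chromosome 9, on the other strand, and the neighbors changed in opposite directions at 100 nM. Efnb1, a B-class ephrin, had 9 and 11 counts with 0 nM and 26 and 29 with 100 nM (1.42 ± 0.414, adjusted p = 0.00701). Sema3c had 13 and 7 counts with 0 nM and 22 and 29 with 100 nM (1.31 ± 0.428, adjusted p = 0.0203). Both sets of 100 nM libraries lay above their controls.

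Slit1 had 2 and 6 counts with 0 nM and 16 and 12 with 100 nM (1.76 ± 0.64 in log2, edgeR adjusted p = 0.0465). Slit3 had 2 and 1 counts with 0 nM and 12 and 10 with 100 nM, and already 10 and 2 with 0.3 nM and 13 and 3 with 1 nM. Replicate 1 held more Slit3 counts than replicate 2 at 0.3, 1 and 3 nM. As a ratio of summed counts at 100 nM, Slit3 was 7.22 times control (95% counting interval 2.17 to 37.7; adjusted p = 0.00836). Sema3g had 1 and 0 counts with 0 nM and 13 and 3 with 100 nM, a ratio of 15.7 (2.45 to 660; adjusted p = 0.0289), and 1 library held most of them. These intervals cover counting error only. The gene that fell, Sema5a, had 39 and 39 counts with 0 nM, 16 and 18 with 3 nM, 29 and 35 with 10 nM and 15 and 26 with 100 nM (-0.95 ± 0.32, adjusted p = 0.0273). It was lower at 100 nM than in both controls, but its 3 nM libraries were lower than its 10 nM libraries. Of 23 other settings, the call was lost in 10 for Slit1, 6 for Sema3g, 5 for Sema5a, 4 each for Slit3, Sema3c and Efnb1 and 1 for Robo3. Among single libraries left out, either control library ended the calls of Slit1, Sema3g and Sema5a, replicate 1 of 0 nM that of Efnb1, and replicate 2 of 0 nM those of Slit3 and Sema3c. Replicate 1 of 100 nM ended those of Slit1, Slit3, Sema3g and Sema5a, replicate 2 of 100 nM those of Slit1, Sema3c and Efnb1, and replicate 1 of 10 nM that of Slit1, and with these and the other settings the adjusted p reached 0.374 for Slit1 and 0.561 for Sema3g. With single libraries left out, the log2 change ranged from 1.22 to 2.67 for Slit1, 0.90 to 1.86 for Sema3c, 2.32 to 3.31 for Slit3 and -1.38 to -0.61 for Sema5a.

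Some markers of neural cells were also higher at 100 nM. Of 10 neural markers, 3 reached a mean of 1 RPKM and 2 of them rose at 100 nM: Tubb3, from 30.7 and 33.9 to 58.1 and 59.9 RPKM, and Nes, from 1.62 and 2.38 to 5.14 and 5.84 RPKM. The summed level of the 10, most of it Tubb3, was 37.7 to 41.8 RPKM with 0 nM and 70.5 to 72.5 RPKM with 100 nM. No marker was at 0 in every library. Cdx2, a trophectoderm gene, had 10 and 4 counts with 0 nM and 64 and 60 counts with 100 nM. The part of such cells in the guidance gene values was not tested. Summed levels of 7 primitive endoderm markers were 1.83 to 2.28 RPKM with 0 nM and 2.52 to 2.86 with 100 nM, and those of 6 fibroblast markers 1.63 to 2.14 and 1.37 to 2.66. They were 13.8 to 17.7 and 20.1 to 21.1 RPKM for 5 mesoderm markers, and 1.82 to 2.76 and 5.23 to 6.49 RPKM for 5 trophectoderm markers.

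**Figure D4:**
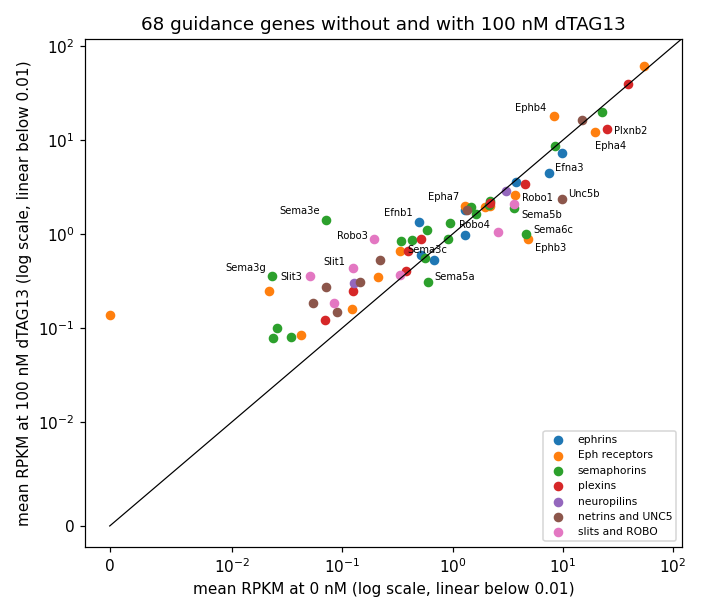
Mean RPKM of all 68 guidance genes at 0 nM (horizontal axis) and 100 nM dTAG13 (vertical axis), each the mean of 2 libraries, on log scales that are linear below 0.01. The line marks equal levels, colors mark families and genes called at 100 nM are named. Of the 37 guidance genes below 1 RPKM, 25 had both 100 nM libraries above both controls, against 38.7% of all genes below the filter, which were not matched by level.

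Genes that work with these families were described from 4 lists of 15 genes each. For comparison with each list, 6.83% of all tested genes were called lower at 100 nM and 4.36% higher. Of 12 tested genes acting downstream of plexins, 4 fell at 100 nM and 0 rose, with a median log2 change of -0.49, against -0.00 over all tested genes. They were Dpysl3 (-1.69 ± 0.162, log2, SE; edgeR adjusted p = 1.20e-08) and Dpysl5, members of the CRMP family that act in semaphorin signaling, Mical1, an actin-oxidizing enzyme, and Gipc1, an adaptor. Dpysl3 had 5.29 and 6.47 RPKM with 0 nM and 1.79 and 1.85 RPKM with 100 nM, without overlap. Of 13 tested genes listed with Eph receptors, Chn2 rose and Fyn, a Src family kinase, fell, with a median of 0.08. Of 12 listed with ROBO and netrin receptors, the protease gene Adam17 rose and Srgap2, a slit-robo GTPase activator, fell, with a median of 0.01. Of 15 other guidance genes, 3 were tested and Flrt3, an UNC5 ligand, fell (-2.14 ± 0.346, adjusted p = 3.80e-05), from 2.11 and 1.43 RPKM to 0.472 and 0.323 RPKM. Over the 4 lists 9 genes were called, and 6 without either control library or without either 100 nM library.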

How the data were processed

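RNA-seq counts of 12 libraries (6 conditions of 2) were used; control labels give no treatment, and the methods describe DMSO. According to the methods and labels, the authors trimmed reads with Trim Galore, aligned them to mm10 with HISAT2 and counted read pairs on exons per gene symbol with featureCounts 2.0.1, without strand and without multi-mapped pairs. The deposited counts are raw, with no normalization or filter, and all 12 columns were used. Coordinates and exon lengths are those deposited with the counts.

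Guidance genes were found by symbol. These members, the gene lists and the tests were chosen with earlier results of these data known. R 4.3.3, edgeR 4.0.16, limma 3.58.1 and DESeq2 1.42.0 were used. The 6 conditions were fitted together by edgeR's quasi-likelihood method with TMM factors over genes averaging at least 1 RPKM (11378), and calls needed a Benjamini-Hochberg adjusted p under 0.05 over all tested genes and a fold change over 1.5. The study used edgeR's likelihood ratio test, run here as an alternative. Genes below the filter were tested in a fit of every gene with a count, with adjustment over that fit. Named genes are those called, those called below the filter at 100 nM and the 3 most abundant of each family. Efnb2, Plxnd1 and the steps from 1 to 10 and from 10 to 100 nM were chosen after values were seen. Where 0 or 1 to 3 counts were summed over both controls, ratios carry exact 95% binomial counting intervals. The main fit did not pair samples by replicate number, and whether the numbers mark shared cultures is not stated. Scripts were tested on simulated data. Alternatives covered the test, normalization, filter, libraries in the fit, replicate block and fold minimum.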

Additional observations from a re-analysis of the deposited data

How the results depend on the processing

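Of the named guidance genes, Epha4, Ephb3, Ephb4, Plxnb2, Robo1, Robo4, Sema3e, Sema5b, Sema6c and Unc5b kept direction and call at 100 nM under all 23 alternatives. Over all named guidance genes and alternatives, 628 values kept direction and side of the threshold, 53 lost a call, 1 gained one (Plxnb1, without the fold minimum) and 8 changed sign. With DESeq2, 1 guidance gene was called higher at 100 nM, 1 was called at 1 nM, 3 from 1 to 10 nM and 1 below the filter. Without normalization factors, 1 was called at 1 nM. Without the filter, 10 were called lower and 9 higher at 100 nM, and 5 were called at 3 nM, which brings in the genes of low level. Pairwise fits, with fewer libraries each, called 2 below the filter and 1 from 10 to 100 nM. Without the fold minimum, 6 were called at 3 nM, 4 at 1 nM, 5 from 0.3 to 3 nM and 14 in the 4 lists of related genes. TMM factors over all genes, added after the data were seen, called 1 higher at 100 nM and gave -0.062 for Plxna1 and -0.0667 for Sema4d. Over all tested genes that scaling called 383 higher and 957 lower (28.6% higher), against 496 and 777 (39.0% higher), and moved the median log2 change from -0.00 to -0.08. The cause of these differences was not tested unless named.

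Leaving out single libraries gave 1 to 2 calls higher at 100 nM, 0 to 2 at 1 nM, 1 to 3 from 0.3 to 3 nM, 3 to 8 below the filter, 1 to 5 from 1 to 10 nM and 0 to 3 from 10 to 100 nM. The log2 change at 100 nM then ranged from -0.124 to 0.015 for Efna2, -0.153 to 0.0164 for Nrp2, -0.0134 to 0.0499 for Plxna1 and -0.0236 to 0.0515 for Sema4d, so these 4 have no stable sign.

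Deviations of same-numbered libraries from their condition means correlated at -0.12 to 0.10 over 15 pairs of conditions, 0 of them over 0.1. No pairing by replicate number was seen, but correlations near 0 cannot show that the cultures were separate. With the replicate block, 8 guidance genes were lower and 2 higher at 100 nM, 6 were called below the filter, and all tested genes gave 492 higher and 763 lower. DESeq2 and pairwise fits give no test across the doses, and the fit of 0, 1, 10 and 100 nM libraries gives no value for 0.3 or 3 nM. Depth limits the genes below the filter, whose calls rest on at most 59 counts in a library.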
